A study of Rattus norvegicus with 6 samples.

Results

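The renin-angiotensin system of the kidney and the peptidases of the proximal tubule brush border were followed through 7 genes: Agt, Ace, Agtr1a, Agtr1b, Mme, Enpep and Anpep. They were found by matching the accession of each array probe to a RefSeq gene symbol, and all 7 had a probe, 12 probes in all among the 61537 non-control probes of the array. All 7 entered the comparison of 31179 genes. The arrays measured renal cortex RNA of 6 male Sprague-Dawley rats, bought at 5 weeks of age and kept on a basal diet with tap water, with 1 array per animal. The treated group of 3 rats received benzyl acetate at 1000 mg/kg/day for 4 weeks, and the vehicle group of 3 rats received corn oil for 4 weeks. Benzyl acetate is an ester used in fragrances and flavourings.

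Angiotensinogen, the product of Agt, is cleaved to angiotensin I, which angiotensin converting enzyme (Ace) trims to angiotensin II. In rodents, angiotensin II acts on vessels, glomeruli and tubules through type 1 receptors that 2 genes, Agtr1a and Agtr1b, encode. Ectopeptidases on the apical membrane of the proximal tubule, a dense brush border, break the angiotensins and other filtered peptides down. Neprilysin (Mme) cuts within peptides, aminopeptidase A (Enpep) turns angiotensin II into angiotensin III, and aminopeptidase N (Anpep) removes the next residue.

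Each value is the log2 of the scanner's processed signal minus that array's 75th percentile, so that 0 is the level of the 75th percentile. Signal depends on the probe as well as on the transcript, so levels are compared between arrays and never between genes. Where a gene had several probes, the brightest stands for it; the dimmer probes of the 7 genes are given beside it. Well above background were 69.0% to 69.8% of probes on the benzyl acetate arrays and 70.5% to 72.0% on the vehicle arrays, without overlap. All 12 probes of the 7 genes were well above background on all 6 arrays. The 75th percentile ran from 883 (benzyl acetate replicate 3) to 990 with benzyl acetate, against 1003 to 1057 with vehicle. Vehicle replicate 1 was on a slide of its own and the other 5 arrays shared a slide. Of the fixed proximal tubule markers 10 of 10 were detected, with a summed log2 level of 11.2 to 11.3 with benzyl acetate and 11.1 to 11.2 with vehicle. In bulk cortex, fewer cells of a type and less RNA per cell cannot be told apart.

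None of the 7 genes passed in the comparison of benzyl acetate with vehicle. By limma with Benjamini-Hochberg adjustment, 0 of the 7 had an adjusted p under 0.05, against a background of 0% of the 31179 genes tested, and 0 of their 12 probes, against 0% of the 42355 probes tested. At an unadjusted p under 0.05 there were 0 of 7, against 6.74% (2100) of all genes. The treated and vehicle arrays overlapped in all 7, where 12.8% of all genes did not overlap, 7.51% with the treated animals wholly higher. The median log2 difference of the 7 was -0.0022, beside 0.012 over all genes, with 3 values above 0 and 4 below. The 7 genes differed widely in how far animals of a group lay apart.

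**Figure D1:**
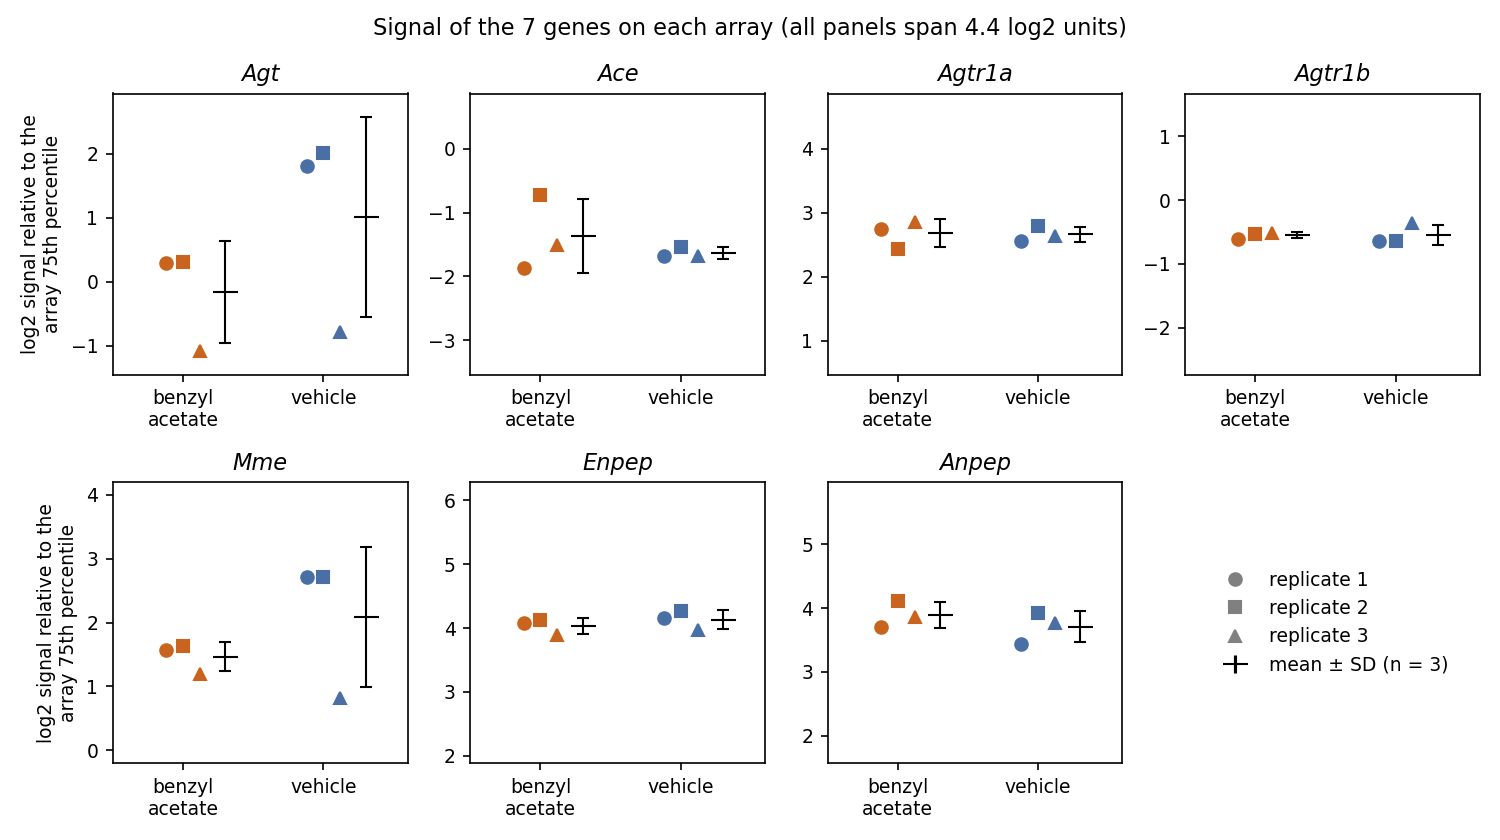
Log2 level, with 0 at the 75th percentile of the array (vertical axis), of the brightest probe of each gene on the 3 benzyl acetate arrays (left) and the 3 vehicle arrays (right), with symbols for the replicate numbers and bars for the mean ± SD. Every panel spans the same number of log2 units. Agt and Mme spread widely in vehicle animals, with SDs of 1.56 and 1.10, against 0.80 and 0.23 in treated animals. The SD of Ace is 0.58 in treated and 0.088 in vehicle animals. The SDs of the type 1 receptor genes, Enpep and Anpep lie between 0.053 and 0.24 in either group.

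Agt, which encodes angiotensinogen, the precursor of all angiotensins, had the widest spread of the 7 genes. Its log2 level was 0.30, 0.31 and -1.08 in the benzyl acetate animals, against 1.81, 2.02 and -0.79 in the vehicle animals. Replicate 3 of each group was the lowest of its group, and the 2 high vehicle animals lay above every treated animal. Treated animals averaged -0.16 ± 0.80 and vehicle animals 1.01 ± 1.56 (SD, n = 3 each). The log2 difference of -1.17 had a 95% interval from -3.21 to 0.87 and did not pass in limma (adjusted p = 0.828). The SD in vehicle animals was above that of 99.7% of genes, whose median SD was 0.124. A dimmer second probe of Agt gave -0.81, -0.97 and -2.27 in the benzyl acetate animals, against 0.68, 0.93 and -1.96 in the vehicle animals. Both probes had the same animals high and low, and the second gave a log2 difference of -1.23 (95% interval -3.30 to 0.84). The size of the Agt difference depended on single animals: without vehicle replicate 3 it was -2.07 (95% interval -3.29 to -0.85, adjusted p = 0.488 in limma), without vehicle replicate 2 it was -0.67, and without vehicle replicate 1, which leaves the 5 arrays of the shared slide, it was -0.77. Without benzyl acetate replicate 3 it was -0.71.

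Ace, which encodes the enzyme that forms angiotensin II and also degrades bradykinin, had 3 probes, which did not order the animals alike. On the brightest the log2 level was -1.86, -0.73 and -1.51 in the benzyl acetate animals, against -1.68, -1.53 and -1.69 in the vehicle animals. Benzyl acetate replicate 2 stood above the other 5 animals, and benzyl acetate replicate 1 below them. Treated animals averaged -1.37 ± 0.58 and vehicle animals -1.63 ± 0.088 (SD, n = 3 each), a log2 difference of 0.27 (95% interval -0.43 to 0.96, adjusted p = 0.883 in limma). Without benzyl acetate replicate 2 that difference was -0.051, in the other direction. The dimmest of the Ace probes had the same order of treated animals, at -4.36, -2.74 and -3.84 with benzyl acetate, against -3.82, -3.72 and -3.81 with vehicle. The remaining Ace probe gave another order, with -2.52, -3.21 and -3.67 in the benzyl acetate animals, against -4.11, -3.95 and -4.27 in the vehicle animals. On this probe alone the groups did not overlap, with the treated animals wholly higher, as they were for 7.14% of all probes. The log2 difference was 0.98 (95% interval 0.27 to 1.69, adjusted p = 0.693 over all probes in limma). The Pearson correlation over the 6 arrays was 0.97 between the brightest and the dimmest Ace probe, and 0.11 and -0.11 between the third and each of these. All 3 probes carry the same RefSeq accession, NM_012544, and which part of the transcript each one reads was not analysed here.

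The type 1 receptor genes had log2 differences near 0. Agtr1a, the main type 1 receptor gene of the rodent kidney, had log2 levels of 2.75, 2.43 and 2.86 in the benzyl acetate animals, against 2.56, 2.79 and 2.64 in the vehicle animals. The groups overlapped fully, at 2.68 ± 0.22 in treated and 2.66 ± 0.11 in vehicle animals (SD, n = 3 each). The log2 difference was 0.018 (95% interval -0.30 to 0.34, adjusted p = 0.992 in limma), and its sign turned under median scaling (-0.011). Agtr1b, the second type 1 receptor gene, which in rats is prominent in the adrenal gland, had log2 levels of -0.61, -0.53 and -0.51 with benzyl acetate, against -0.64, -0.63 and -0.36 with vehicle. The log2 difference was -0.0022 (95% interval -0.25 to 0.24, adjusted p = 0.998 in limma). A dimmer Agtr1b probe gave levels from -3.64 to -3.13 with benzyl acetate and from -3.28 to -3.18 with vehicle, and a log2 difference of -0.079 (95% interval -0.44 to 0.29). For Agtr1a and the brighter Agtr1b probe, the interval leaves out differences beyond 0.34 log2 in either direction. The transcripts of these 2 genes are close in sequence, and whether a probe reads both was not tested. The correlation between the 2 Agtr1b probes over the 6 arrays was -0.11. Of the 6 adrenal cortex markers (Cyp11b1, Cyp11b2, Cyp11a1, Star, Mc2r and Nr5a1), 0 passed the filter on dim probes.

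Agtr2 and Mas1, further receptor genes of the pathway, gave little signal. Both probes of Agtr2, which encodes the type 2 receptor, were not well above background on any of the 6 arrays, so Agtr2 was not tested. Mas1, the receptor of the shorter angiotensins, was dim, at -4.96, -4.41 and -5.73 with benzyl acetate, against -6.05, -5.02 and -4.77 with vehicle, and its log2 difference was 0.24 (95% interval -0.86 to 1.35, adjusted p = 0.944 in limma). Atp6ap2, an accessory subunit of the vacuolar proton pump, had a log2 difference of 0.0078 (95% interval -0.24 to 0.25) on its brighter probe and -0.075 on the other. With median scaling the brighter probe gave -0.021.

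**Figure D2:**
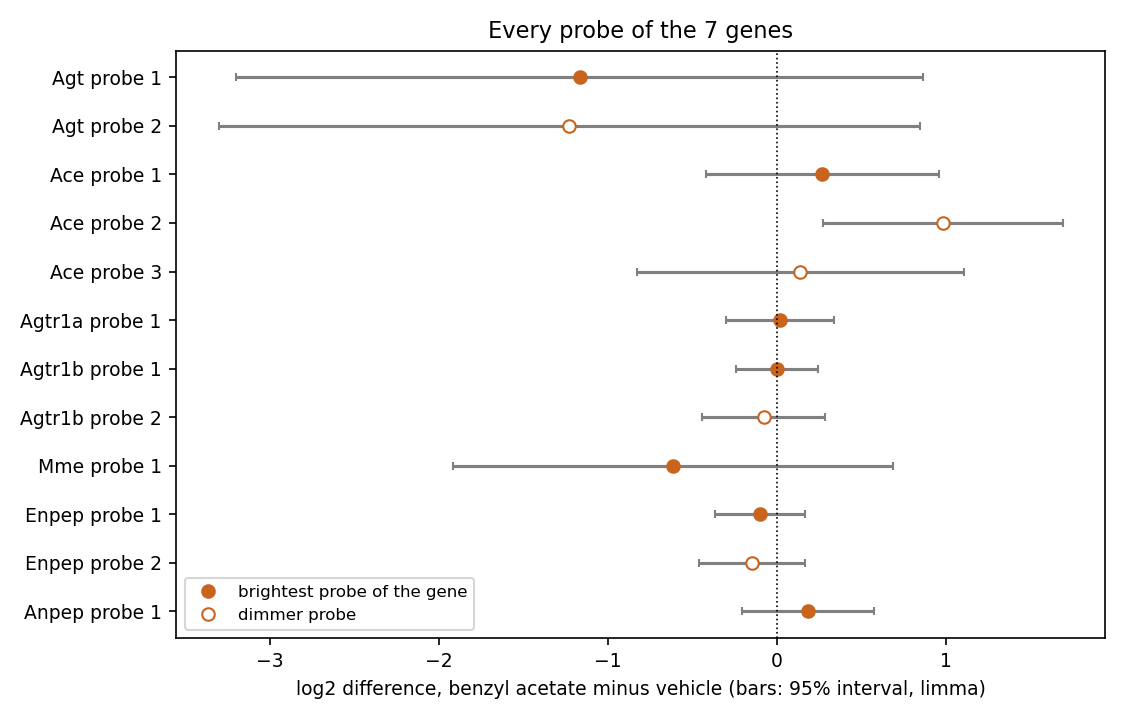
Log2 difference, benzyl acetate minus vehicle, of all 12 probes of the 7 genes (horizontal axis) with 95% intervals from limma fitted to all probes, numbered within each gene from the brightest probe. The probes of Agt and of Enpep lie close together, and of the 12 intervals only that of the second Ace probe leaves out 0.

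Mme encodes neprilysin, the endopeptidase that cleaves natriuretic peptides, bradykinin and angiotensins. Its log2 level, from 1 probe, was 1.58, 1.63 and 1.20 in the benzyl acetate animals, against 2.72, 2.72 and 0.82 in the vehicle animals. As with Agt, vehicle replicates 1 and 2 stood above every treated animal; here the treated animals all lay above vehicle replicate 3. Treated animals averaged 1.47 ± 0.23 and vehicle animals 2.08 ± 1.10 (SD, n = 3 each). The log2 difference of -0.62 (95% interval -1.92 to 0.69) did not pass in limma (adjusted p = 0.852). It was -1.25 (95% interval -1.64 to -0.85, adjusted p = 0.372) without vehicle replicate 3, -0.30 without vehicle replicate 1 and -0.30 without vehicle replicate 2. The SD of Mme among vehicle animals was above that of 99.2% of genes.

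Enpep, which encodes aminopeptidase A, had log2 levels of 4.07, 4.13 and 3.89 in the benzyl acetate animals, against 4.16, 4.26 and 3.97 in the vehicle animals. Here too replicate 3 was the lowest of each group, within a much narrower range. The log2 difference was -0.10 (95% interval -0.37 to 0.16, adjusted p = 0.884 in limma), and the dimmer probe gave -0.15 (95% interval -0.46 to 0.17). It was -0.18 when vehicle replicate 3 was left out, -0.035 when vehicle replicate 2 was, and -0.031 when benzyl acetate replicate 3 was. Anpep, which encodes aminopeptidase N, had log2 levels of 3.71, 4.10 and 3.86 with benzyl acetate, against 3.44, 3.92 and 3.77 with vehicle. Its replicates 3 lay in the middle of their groups. The log2 difference of Anpep was 0.18 (95% interval -0.21 to 0.57, adjusted p = 0.852 in limma), 0.048 when vehicle replicate 1 was left out and 0.076 when benzyl acetate replicate 2 was.

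The DNA before the start of Mme, Enpep and Anpep is shown because the first 2 had the array order of Agt and the third did not. Windows were held for 6 of the 7 genes (all but Agt) in RefSeq promoters of the rat build GRCr8, and each line gives the 250 bases before the start, 5′ to 3′ in the direction of the gene, at chr2:149872247-149872496 (plus strand), chr2:220526219-220526468 (minus strand) and chr1:143195102-143195351 (minus strand). Capitals mark the letters AGGTCA, a core motif of nuclear receptor sites, or GTTAAT, one arm of the site of hepatocyte nuclear factor 1, on either strand.
Mme: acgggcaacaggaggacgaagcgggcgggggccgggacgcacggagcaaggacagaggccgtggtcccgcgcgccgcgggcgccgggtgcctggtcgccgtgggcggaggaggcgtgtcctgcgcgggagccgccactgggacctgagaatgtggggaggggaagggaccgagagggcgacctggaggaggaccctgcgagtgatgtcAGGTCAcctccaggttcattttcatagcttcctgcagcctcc
Enpep: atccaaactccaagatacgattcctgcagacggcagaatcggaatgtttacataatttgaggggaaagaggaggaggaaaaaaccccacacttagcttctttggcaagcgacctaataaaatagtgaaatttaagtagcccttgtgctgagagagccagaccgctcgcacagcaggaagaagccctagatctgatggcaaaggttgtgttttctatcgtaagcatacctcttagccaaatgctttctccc
Anpep: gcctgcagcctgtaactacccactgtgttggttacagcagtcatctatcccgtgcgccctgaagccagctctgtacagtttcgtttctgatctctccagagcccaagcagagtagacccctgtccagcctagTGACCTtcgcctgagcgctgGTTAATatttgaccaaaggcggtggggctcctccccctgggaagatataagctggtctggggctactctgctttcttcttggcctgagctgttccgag
Mme held 1 AGGTCA, with its first base 42 bases before the start, and Anpep held AGGTCA on the other strand (118) and GTTAAT (98), while Enpep held neither. TATAAA, the TATA box core, was in none of these 3 windows. It was in those of Agtr1a (45 bases before the start) and, on the other strand, Ace (42). The motifs do not overlap one another in these windows. Of all 33469 windows of the same length, 14.1% held AGGTCA, 6.45% held GTTAAT and 12.9% held TATAAA, on either strand. The windows of Mme and Enpep differed in base makeup, with 70.4% and 45.2% G or C, beside a median of 51.2% over all windows. A match is a description of letters and not a site of binding.

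Across arrays, Agt, Mme and Enpep shared an order in which the groups overlapped. Each vehicle animal lay above the treated animal of the same number in Agt and Enpep, and in Mme for numbers 1 and 2. The part of the treatment in this order was not tested. In these 3 of the 7 genes benzyl acetate replicate 3 and vehicle replicate 3 were the 2 lowest of the 6 arrays, which held for 5.56% of all genes; this order was noticed in the values, so the count is a description. Mep1b, the beta subunit of the brush border protease meprin, had it too, at 2.79, 2.53 and 1.24 with benzyl acetate, against 3.55, 3.78 and 0.86 with vehicle. Ggt1, the gamma-glutamyltransferase that starts the breakdown of glutathione, had 5.25, 5.26 and 5.06 with benzyl acetate, against 5.73, 5.71 and 5.09 with vehicle. Both genes thus had their high values in vehicle replicates 1 and 2. Of the 10 tested brush border peptidase genes outside the 7, only these 2 had replicates 3 as the 2 lowest arrays. Mep1a, the other meprin subunit, was highest in vehicle replicate 3 (3.84). The proximal tubule marker Slc7a13, an amino acid transporter of the late (S3) segment, also had replicates 3 as its 2 lowest arrays. Its log2 level was 4.62, 4.47 and 2.74 with benzyl acetate, against 5.51, 5.54 and 2.63 with vehicle. It was the only 1 of the 10 fixed proximal tubule markers with that order. Slc5a2, the glucose transporter of the first segment, was among the 9 without it, at 7.40, 7.56 and 7.64 with benzyl acetate, against 7.24, 7.40 and 7.57 with vehicle. A list of 6 late proximal tubule genes was drawn up after the values were seen and holds Slc7a13 itself. Its 5 tested genes all had values below 0, as had 14354 of all 31179 genes. In 3 of the 5 (Slc7a13, Slc22a7 and Slc6a18) replicates 3 were the 2 lowest arrays, and in Slc5a1 and Cyp7b1 they were not.

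Marker sums of other cell types also differed between animals. The fat list, of which 4 of 5 genes were tested, summed to 0.47, 0.60 and 0.069 with benzyl acetate, against 0.47, 0.61 and -0.34 with vehicle, so replicates 3 were again the 2 lowest arrays; of its 4 tested genes 1, Cidec, had that order. The thick ascending limb list, of which 3 of 4 genes were tested, summed to 8.17, 8.14 and 8.05 with benzyl acetate, against 8.57, 8.41 and 7.64 with vehicle. Here too replicates 3 were the 2 lowest arrays, and 2 of its 3 tested genes, Umod and Slc12a1, had that order. The T cell list, of which 3 of 5 were tested, summed to 0.12, -0.20 and 0.014 with benzyl acetate, against 0.34, 0.080 and 1.52 with vehicle. The part of these cell types in the values of Agt, Mme and Enpep was not tested.

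**Figure D3:**
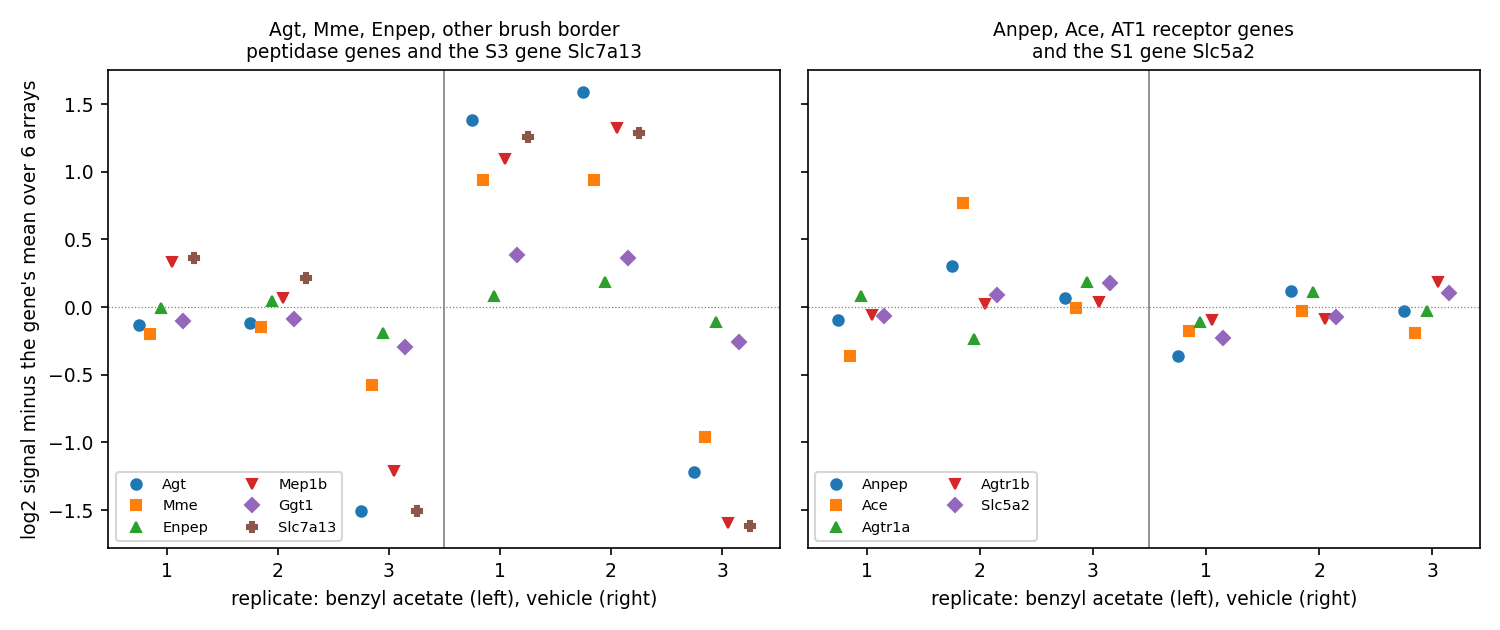
Log2 signal minus the gene's mean over the 6 arrays (vertical axis) for benzyl acetate replicates 1 to 3 (left of the line in each panel) and vehicle replicates 1 to 3 (right of it). Agt, Mme, Mep1b and Slc7a13 are high in vehicle replicates 1 and 2 and low in replicate 3 of both groups, with Ggt1 and Enpep in the same order over a smaller range, and the genes of the right panel do not share that order.

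For each of the 7 genes the 2 genes with the most similar levels over the 6 arrays were sought among 11934 others with a symbol, by Pearson correlation. All values share the same 6 arrays and their scaling, so these are descriptions. For Agt they were Oat, the ornithine aminotransferase (0.998), and Fa2h, a fatty acid hydroxylase (0.993). For Mme they were Anxa13 (0.997) and Slc50a1 (0.995), and for Enpep Pet100 (0.998) and Tdrp (0.993). These stayed at 0.965 or above for all 3 genes without the 2 arrays farthest from the median. For Anpep they were Or9s27 (0.994) and Myc (0.992), for Agtr1a Bcl3 (0.994) and Wipi1 (0.991), and for Agtr1b Kcnrg (0.987) and Syf2 (0.986). Without the 2 farthest arrays of each gene, these values too stayed at 0.949 or above. For Ace they were Aloxe3 (0.989) and Defb105b (0.977), and without benzyl acetate replicates 1 and 2 these 2 values were 0.768 and 0.753, so they rest on those arrays.

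Among further genes of these pathways, none passed in limma either. Of 24 renin-angiotensin genes 19 were tested, with 0 called higher and 0 lower, 10 values above 0 and 9 below, and a median log2 difference of 0.0056. Prep, a cytosolic prolyl peptidase, had the largest difference of this list outside the 7 genes, at -0.54 (95% interval -1.09 to 0.0022, adjusted p = 0.736); it was singled out after its values were seen. All 14 brush border peptidase genes were tested, again with 0 called in either direction. Of these 9 had values below 0 and 5 above, with a median of -0.12, beside 0.012 over all genes. Values below 0 were found in 14354 of all 31179 genes. The treated animals lay wholly lower in 2 of the 14, against 5.31% of all genes. One was Mep1a, the meprin alpha subunit, at 3.70, 3.67 and 3.45 with benzyl acetate, against 3.76, 3.81 and 3.84 with vehicle, a log2 difference of -0.20 (95% interval -0.41 to 0.021, adjusted p = 0.754). Its second probe also lay wholly lower, at -0.23 (95% interval -0.39 to -0.062, adjusted p = 0.693 over all probes in limma). The other was Xpnpep2, a membrane aminopeptidase, at -0.13 (95% interval -0.29 to 0.024). Ggt1 differed by -0.33 (95% interval -0.79 to 0.14). Dpp4, the dipeptidyl peptidase of the same membrane, was steady, at 5.94 ± 0.053 in treated and 5.87 ± 0.072 in vehicle animals (SD, n = 3 each), and differed by 0.069 (95% interval -0.11 to 0.24), and by 0.095 and 0.040 on its dimmer probes.

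The 10 kallikrein-kinin genes, whose peptides neprilysin and Ace degrade, were all tested, with 0 called, 5 values above 0 and 5 below, and a median of 0.0060. Klk1, the tissue kallikrein, differed by -0.035 (95% interval -0.26 to 0.20) and Bdkrb2, the bradykinin receptor, by 0.064 (95% interval -0.098 to 0.23). Of 12 juxtaglomerular and mineralocorticoid genes 9 were tested, with 0 called. All 9 had values above 0, from 0.028 to 0.37, with a median of 0.20. Over all genes 16825 of 31179 had values above 0. Adora1, an adenosine receptor, differed by 0.21 (95% interval -0.098 to 0.53). Gja5, a connexin of vessel walls, differed by 0.29 (95% interval -0.0033 to 0.59), and Ptgs2, the inducible prostaglandin synthase, by 0.37 (95% interval -0.39 to 1.14). Adora1 and Ptgs2 were dim, at means of -5.03 and -4.30 with benzyl acetate, against -5.25 and -4.67 with vehicle. The second probe of each was not well above background on any array. Beside the juxtaglomerular list, 4 of 5 podocyte markers and 4 of 5 endothelial markers had values above 0. Of the 6 tested markers of juxtaglomerular, mesangial and vascular smooth muscle cells, 3 had values above 0 and 3 below. Among the endothelial genes, Kdr differed by 0.25, with the treated animals wholly higher, and Tek by -0.21, with the treated animals wholly lower, while Pecam1, Emcn and Cdh5 had values of 0.033, 0.023 and 0.028. The summed log2 level of the endothelial list was 5.06 to 5.17 with benzyl acetate and 4.84 to 4.99 with vehicle, and Kdr is the 1 gene of the list that lay wholly higher. The podocyte sums overlapped, at 4.91 to 5.26 with benzyl acetate and 4.83 to 5.13 with vehicle. The part of these cell types in the values of the juxtaglomerular list was not tested.

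**Figure D4:**
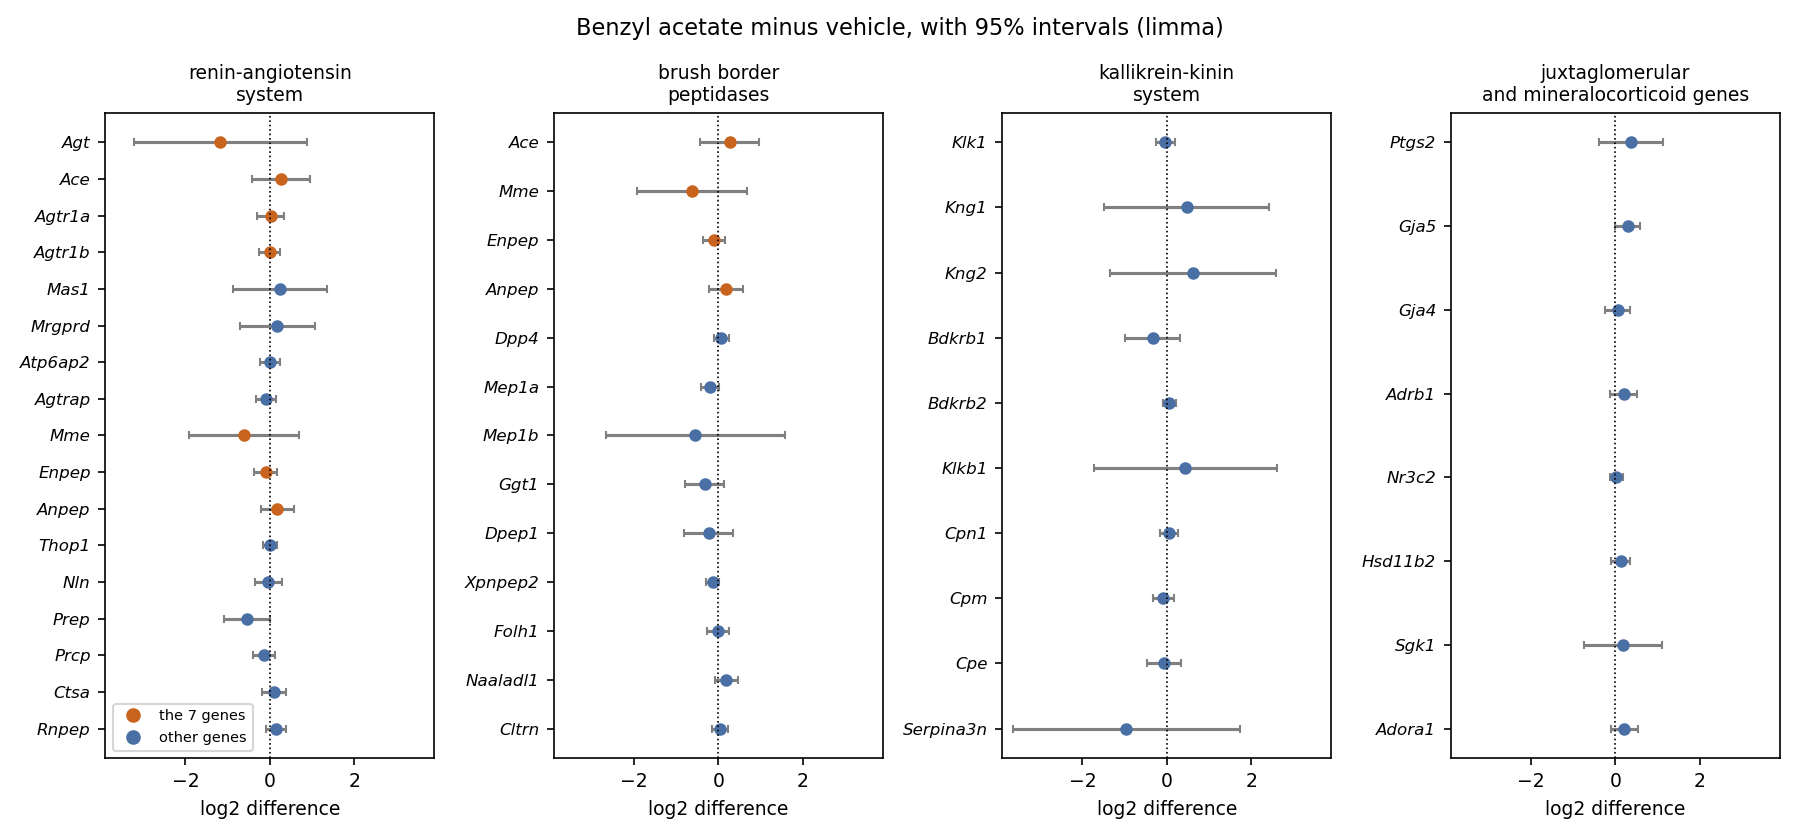
Log2 difference, benzyl acetate minus vehicle (horizontal axis), with 95% intervals from limma for genes of 4 lists, with the 7 genes in orange and the others in blue. The intervals of Agt, Mme and Mep1b are wide, as are those of Kng1, Kng2, Klkb1 and Serpina3n in the kallikrein-kinin list.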

How the data were processed

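Renal cortex RNA labelled with Cy3 was hybridised to 1-colour Agilent arrays; per the labels the groups hold 3 animals each. The deposited scanner tables hold linear intensity values: a processed signal, spot and background medians, and flags, per the file headers. The submitters' processing notes name Agilent Feature Extraction 10.7. A deposited table of scaled intensity values matched the processed signal divided by each array's 75th percentile, with column medians of 0.1148, 0.1118 and 0.1125 for benzyl acetate and 0.1102, 0.111 and 0.111 for vehicle.

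Each processed signal was put on the log2 scale, and the 75th percentile of the 61537 non-control probes of its array was subtracted, so a uniform shift of all genes cannot be seen. Outlier-flagged spots were left out; no spot was saturated. Probes well above background on all 3 arrays of a group (42355) entered, named through a RefSeq table of GRCr8 (28206 of all probes matched a symbol), with the brightest probe per gene. All 31179 genes, and separately all probes, were fitted with limma 3.58.1 (R 4.3.3), with Benjamini-Hochberg adjustment and a threshold of 0.05, after tests on simulated data. The members and lists were chosen with earlier results of these data known. Named were the 7 genes, 10 fixed pathway genes, list genes past the threshold (none), 2 most similar genes for each of the 7, and markers a result turned on; Mep1b, Prep, Xpnpep2, Adora1, Gja5 and Ptgs2 were named with their values known. The alternatives tried were replicate and slide blocks, normexp (on spot medians), quantile and median scaling, 2 other filters, mean of probes, flagged spots kept, the deposited table and leaving out each array. Some genes of the fixed lists are counted but not reported one by one here.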

Additional observations from a re-analysis of the deposited data

How the results depend on the processing

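None of the 7 genes passed under any of the 16 alternatives. Over all genes, normexp background correction called 2 genes, both lower, and 2 probes, and the fits that left out 1 array called 0 to 4 genes and 0 to 3 probes: 2 genes without benzyl acetate replicate 1 and 4 without benzyl acetate replicate 3, none of them among the 7; the cause was not tested. The other alternatives called 0. Agt, Mme, Enpep and Anpep kept their direction in all 16 alternatives. Leaving out 1 array at a time gave -2.07 to -0.67 for Agt, -1.25 to -0.30 for Mme, -0.18 to -0.031 for Enpep and 0.048 to 0.29 for Anpep. Directions turned for values near 0: Agtr1a with the slide as a block (-0.032) and median scaling (-0.011), Mas1 with the slide as a block (-0.14), and Atp6ap2 with median scaling (-0.021) and the mean of probes (-0.034). They also turned when 1 array was left out, with ranges of -0.051 to 0.51 for Ace, -0.069 to 0.14 for Agtr1a, -0.051 to 0.092 for Agtr1b, -0.14 to 0.59 for Mas1, -0.080 to 0.089 for Atp6ap2 and -0.10 to 0.048 for Klk1. With the slide as a block, which takes vehicle replicate 1 out of the comparison, the difference was -0.77 for Agt and -0.30 for Mme, 0.24 for Ace and 0.048 for Anpep. The labels number the animals 1 to 3 in each group. Same-numbered animals did not deviate together over all genes (r = -0.11, 0.0075 and 0.00095). A value over all genes cannot decide whether the numbers pair the animals for a single gene. With the replicate block 0 genes were called. For Agt the difference of -1.17 then had a 95% interval from -2.07 to -0.27, which leaves out 0. Its adjusted p was 0.721 in limma, and Agt was the only 1 of the 7 genes with an unadjusted p under 0.05. With 3 arrays per group, the number of arrays limits the precision.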
